A study of Homo sapiens with 6 samples.

Results

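The 10 integrin subunit genes followed here were measured in K1 cells, a line derived from papillary thyroid carcinoma: 5 α subunits (ITGA2, ITGA3, ITGA5, ITGA6, ITGAV) and 5 β subunits (ITGB1, ITGB3, ITGB4, ITGB5, ITGB6). They were taken by exact gene symbol, and all 10 were among the 20522 rows of each library's table and the 20322 rows of a second table with 1 value per group. The cells had been transfected with a negative control siRNA (NC, 3 mRNA-seq libraries) or with an siRNA against NEAT1_2, the long form of the nuclear lncRNA NEAT1 (si-NEAT1_2, 3 libraries), and both groups rest on 1 cell line and on 1 siRNA sequence each. The hours between transfection and harvest are not given in the sources used here. NEAT1 itself was not analysed here, and the groups stand as labelled, with no measure of how far the target was lowered. The question was how the receptors for fibronectin, laminin and collagen differed between the transfections, in a study that followed adhesion and FN1.

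Integrins are cell surface receptors made of 1 α and 1 β chain, and the pair decides which matrix protein is bound. ITGB1 joins the most α chains: with ITGA2 it binds collagen, with ITGA3 and ITGA6 laminin, and with ITGA5 fibronectin. ITGAV pairs with ITGB1, ITGB3, ITGB5 or ITGB6 and binds vitronectin, fibronectin and the latent form of TGF-β, while ITGB4 pairs with ITGA6 in hemidesmosomes, the junctions that hold epithelium on laminin. Inside the cell, talin and kindlin grip NPxY-type motifs in the β tail, and the α tail carries the motif GFFKR next to the membrane. In thyroid carcinoma, integrins are studied for their part in attachment, migration and invasion.

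The coding bases of these tail motifs are shown as examples of the members' sequence. Over whole transcripts, base composition differed widely between the members and moved with most of their fold changes, as described further on. The 30 bases shown do not stand for that composition. Their GC content was 63.3% in ITGA3, 36.7% in ITGA6, 50% in ITGAV, 40% in ITGB1, 50% in ITGB3 and 36.7% in ITGB5. In ITGAV this was well above the longest transcript (38.3%), and in ITGB5 well below it (54.3%). The other members shown were closer to theirs. Each line gives the subunit, its transcript's strand and the span in GRCh38, then 30 coding bases of the principal transcript of GENCODE release 29, written 5′ to 3′ as in the mRNA. Capitals mark the codons of GFFKR in the α chains and of the first NPxY motif in the β chains. Each stretch crosses a junction between a pair of exons, so that the genomic span includes an intron.
ITGA3 (GFFKR, plus strand, chr17:50087864-50088248): tggaagtgcGGCTTCTTCAAGCGAgcccgc
ITGA6 (GFFKR, plus strand, chr2:172498095-172501795): tggaagtgtGGTTTCTTCAAGAGAaataag
ITGAV (GFFKR, plus strand, chr2:186676930-186677220): tacaggatgGGCTTTTTTAAACGGgtccgg
ITGB1 (NPxY, minus strand, chr10:32901609-32908370): acgggtgaaAATCCTATTTATaagagtgcc
ITGB3 (NPxY, plus strand, chr17:47307635-47310165): acagccaacAACCCACTGTATaaagaggcc
ITGB5 (NPxY, minus strand, chr3:124763692-124764393): atggcttcaAATCCATTATACagaaagcct
The motif was found in the last 90 codons of 9 of the 10 members, all but ITGB4, whose long tail is of another kind. Over whole coding sequences, GC content ran from 41.4% in ITGB1 and 42.2% in ITGA2 through 44.7% in ITGA6, 44.9% in ITGAV, 47.1% in ITGB6, 54.8% in ITGB3, 55.8% in ITGB5 and 58.7% in ITGA5 to 60.2% in ITGA3 and 63.3% in ITGB4. At the last base of the codon, where many changes leave the amino acid as it is, the range was wider, from 38.6% in ITGB1 to 82.8% in ITGB4. The coding sequences of ITGB1 (2394 bases), ITGB3 (2364 bases) and ITGB5 (2397 bases) were of nearly equal length.

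The libraries held between 22798631 and 27066025 counts. Markers of thyroid epithelium were partly present: PAX8, a thyroid transcription factor, stood at 113 to 169 FPKM (fragments normalised to transcript length and library size), and keratins KRT7, KRT8 and KRT18 at 391 to 1586 FPKM, whereas NKX2-1, TSHR and SLC5A5 were at or below 0.08 FPKM and CDH1 at or below 0.38 FPKM. Of 4 endothelial markers the summed level was 0.14 to 0.18 FPKM in NC and 0.07 to 0.20 in si-NEAT1_2. Of 5 blood and immune markers it was 11.6 to 13.4 FPKM in NC and 15.1 to 19.99 in si-NEAT1_2, nearly all of it CD68 (11.6 to 19.63 FPKM), a lysosomal protein, while PTPRC, which defines leukocytes, was at or below 0.11 FPKM. Of 6 fibroblast markers the summed level was 25.2 to 29.8 FPKM in NC and 19.55 to 22.5 in si-NEAT1_2, and LUM alone (16.2 to 25.04 FPKM) was at 1 FPKM or more in every library. The immune and fibroblast sums thus did not overlap between the groups, and their part in the results was not tested. Because this is bulk RNA, fewer cells with a transcript and less of it per cell cannot be told apart. On the first principal component, which carried 55.1% of the variance of log2 CPM (counts scaled to library size), NC replicate 2 (-43.3) and si-NEAT1_2 replicate 2 (52.7) stood at opposite ends, with the other 4 libraries between -15.0 and 15.9.

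K1 cells expressed the members at levels far apart, led by ITGB1 and ITGA3. In NC, ITGB1 averaged 658 ± 92.9 FPKM (SD, n = 3), ITGA3 268 ± 19.1, ITGB5 79.9 ± 6.89, ITGB3 73.4 ± 7.65, ITGA5 65.4 ± 3.86, ITGA6 30.1 ± 4.36, ITGAV 29.8 ± 6.89 and ITGA2 2.22 ± 0.520. ITGB6, the epithelial partner of ITGAV, and ITGB4 were at 0.153 ± 0.101 and 0.05 ± 0.04 FPKM. Neighbours whose NC libraries overlapped were ITGB5 and ITGB3, ITGB3 and ITGA5, ITGA6 and ITGAV, and ITGB6 and ITGB4, and so these pairs have no firm order. In si-NEAT1_2 the order kept ITGB1, ITGA3 and ITGB5 in front, and the ITGB5 libraries no longer overlapped with any other member. ITGA3 was the main α chain of these cells at 67.7 ± 2.89% of the summed α FPKM in NC, and ITGB1 the main β chain at 80.9 ± 2.39% of the summed β FPKM. Among the 13109 genes tested, ITGB1 was at the 98.9th percentile of mean FPKM, ITGA3 at the 97.9th and ITGB5 at the 93.4th.

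**Figure D1:**
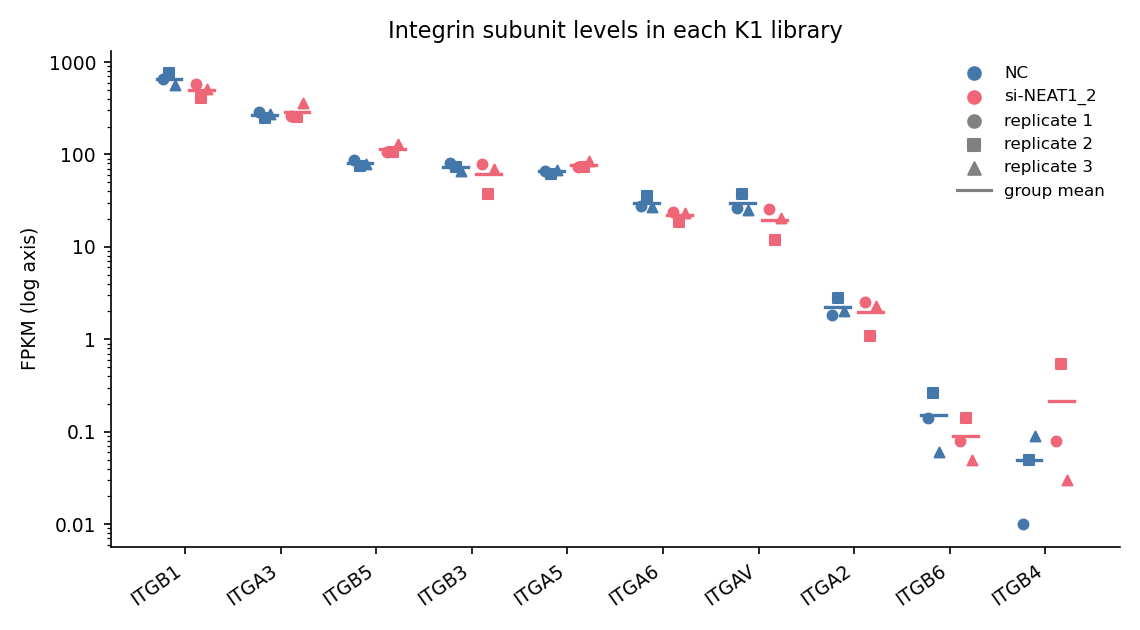
FPKM of the 10 integrin subunits on a log axis in the 3 NC (blue) and 3 si-NEAT1_2 (red) libraries, with a symbol for each replicate and a line for the group mean, ordered by the NC mean. ITGB5 sits higher in all si-NEAT1_2 libraries (107 to 129 FPKM) than in NC (74.3 to 87.6 FPKM), ITGA6 sits lower, and ITGB3 and ITGAV spread widely within si-NEAT1_2.

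No subunit passed the thresholds of the study's methods, a 2-fold change and an adjusted p below 0.05 (Benjamini-Hochberg, over 13109 genes). With edgeR's quasi-likelihood test the number called was 0 of 9 subunits tested, as it was for all genes (0%). With DESeq2 it was also 0 of 9 subunits, of 73 genes called in all (25 higher, 48 lower). At an unadjusted p under 0.05, 1 of the 9 was higher in si-NEAT1_2 (ITGB5), against 11.2% of all genes. At the same level 3 were lower (ITGA6, ITGAV, ITGB1), against 12.9%. The paper's methods speak of pairs of NC and si-NEAT1_2 cells, whereas this fit is unpaired. With the replicate numbers as a block, ITGAV (unadjusted p = 0.078, edgeR) and ITGB1 (unadjusted p = 0.134, edgeR) were above 0.05. CPM did not overlap between the groups for ITGB5, which was higher (15.4% of all genes were), and for ITGA6, which was lower (14.1% were). The median log2 fold change of the 9 was -0.21, beside 0.0090 over all genes, and with the GC content and length offsets described further on it was -0.065, beside -0.029 over all genes. The value as deposited moved to 0.019 when si-NEAT1_2 replicate 2 was left out. Without NC replicate 2 it was 0.028, a median over 10 subunits, since ITGB4 then passed the filter. The middle value of the other 9 was then that of ITGB6, at -0.0023. Nothing in the labels says that the libraries came from separate cultures, and the p-values then measure only the spread between these libraries, which may be technical.

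ITGB5, which joins ITGAV to form a vitronectin receptor, gave the clearest difference. The gene lies on the minus strand of chromosome 3 (chr3:124761948-124901418, GRCh38). Its level was 87.6, 74.3 and 77.9 FPKM in NC replicates 1 to 3 and 107, 107 and 129 FPKM in si-NEAT1_2 replicates 1 to 3. All si-NEAT1_2 libraries were above all NC libraries, with a gap wider than the range of the NC libraries. In TMM-scaled CPM the means were 260.2 ± 29.6 in NC and 383 ± 34.5 in si-NEAT1_2 (SD, n = 3). The fold change was 1.47, with a 95% confidence interval of 1.20 to 1.80, a log2 fold change of 0.56 ± 0.13 (SE) and an adjusted p of 0.170 from edgeR. Leaving out each library kept the log2 fold change between 0.47 and 0.63. The adjusted p passed the threshold with DESeq2 (0.0206), with offsets for GC content and length (0.0430) and without si-NEAT1_2 replicate 1 (0.0495), and over all 16 alternatives it ranged from 0.0206 to 0.558. The labels give each library a code, L2, L3 or L4, of unstated meaning; within L2 (NC replicates 2 and 3, si-NEAT1_2 replicate 2) the log2 difference of ITGB5 was 0.59 and within L3 (1 library a group) 0.54, while L4 held si-NEAT1_2 replicate 1 only.

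ITGB3, the other β chain that takes ITGAV to vitronectin, did not share that pattern. It lies on the plus strand of chromosome 17 (chr17:47253846-47311816). Its level was 81.3, 72.7 and 66.1 FPKM in NC and 79.0, 37.3 and 69.2 FPKM in si-NEAT1_2. Only si-NEAT1_2 replicate 2 stood below the NC libraries, and the groups overlapped. The log2 fold change was -0.21 with an adjusted p of 0.539 from edgeR, and leaving out si-NEAT1_2 replicate 2 brought it to 0.019. An RNA annotated on the same strand, AC068234.1, overlaps ITGB3 exons and was not analysed here. The same holds for ITGB6, which AC092153.1 overlaps on the same strand.

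ITGB1, the common β chain, was measured at 648, 755 and 570 FPKM in NC and at 577, 404 and 511 FPKM in si-NEAT1_2. The highest si-NEAT1_2 library was just above the lowest NC library. The log2 fold change was -0.34 (95% confidence interval -0.67 to -0.0028), with an adjusted p of 0.205 from edgeR. It was -0.49 within L2 and -0.35 within L3.

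Among the α chains, ITGA6, a laminin receptor, was at 27.96, 35.1 and 27.2 FPKM in NC and at 24.1, 18.5 and 23.0 FPKM in si-NEAT1_2. It was the only α chain whose CPM did not overlap between the groups, although the nearest libraries were close. Its log2 fold change was -0.42 ± 0.14 (SE), with an adjusted p of 0.170 from edgeR, and -0.59 within L2 and -0.26 within L3. ITGAV, the vitronectin and latent TGF-β receptor chain, was at 26.5, 37.7 and 25.2 FPKM in NC and at 25.7, 11.9 and 20.5 FPKM in si-NEAT1_2. The groups overlapped, with the highest value in NC replicate 2 and the lowest in si-NEAT1_2 replicate 2. Its log2 fold change was -0.52 (adjusted p = 0.196, edgeR), or -0.31 once si-NEAT1_2 replicate 2 was left out. It was -1.19 within L2 and -0.25 within L3.

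ITGA5, the classical fibronectin receptor chain, was at 66.9, 61.0 and 68.3 FPKM in NC and at 73.2, 72.9 and 84.8 FPKM in si-NEAT1_2. On this scale its groups did not overlap, but in TMM-scaled CPM they did. The log2 fold change was 0.22 (95% confidence interval -0.072 to 0.51, adjusted p = 0.305 from edgeR), or 0.11 once si-NEAT1_2 replicate 3 was left out. ITGA3, the chief laminin receptor chain by level, was at 285, 247 and 272 FPKM in NC and at 260.5, 254 and 358 FPKM in si-NEAT1_2. Its groups overlapped, with si-NEAT1_2 replicate 3 the highest library. The log2 fold change was 0.18 (-0.16 to 0.53, adjusted p = 0.471 from edgeR), and leaving out si-NEAT1_2 replicate 3 made it 0.020. The collagen receptor chain ITGA2 was low, at 1.84, 2.81 and 2.0 FPKM in NC and at 2.51, 1.08 and 2.28 FPKM in si-NEAT1_2, and its log2 fold change of -0.13 had an interval of -0.71 to 0.45.

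The remaining pair lay near the limit of detection. ITGB6 had 12, 18 and 7 counts in NC and 9, 12 and 5 in si-NEAT1_2, and its log2 fold change of -0.45 had an interval of -1.78 to 0.87, too wide to give a direction at this depth. ITGB4, the hemidesmosome β chain, had 1, 6 and 3 counts in NC and 11, 18 and 4 in si-NEAT1_2. It did not pass the filter on low counts in the fit reported and was not tested there. In some alternatives it was tested on these low counts. Its usual partner ITGA6 was present at 18.5 FPKM or more in every library.

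**Figure D2:**
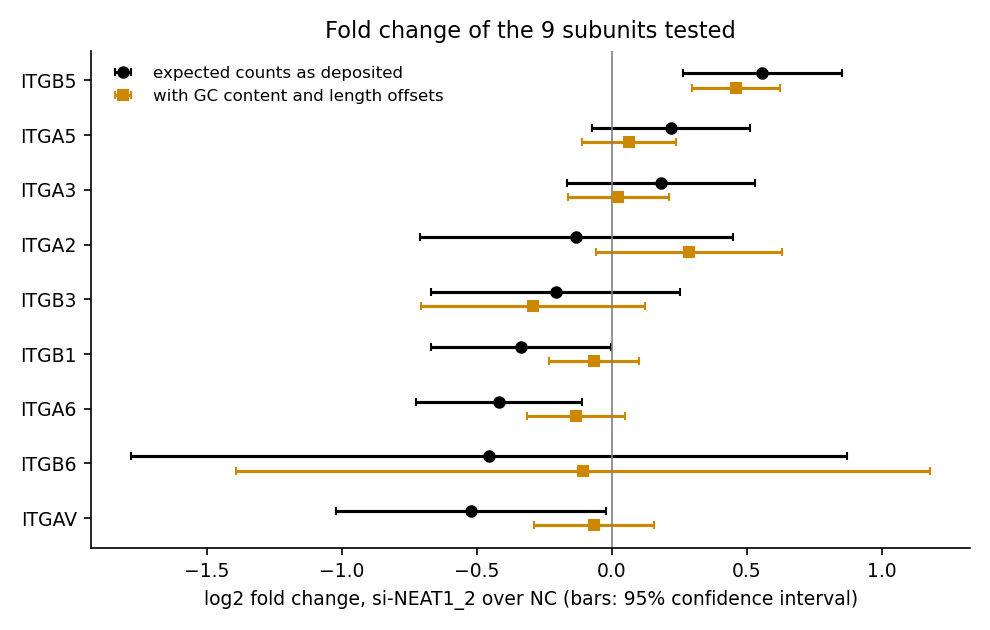
Log2 fold change of si-NEAT1_2 over NC for the 9 subunits tested, with 95% confidence intervals from edgeR, from the expected counts as deposited (circles) and with offsets for GC content and length (squares). ITGB5 stays above 0 in both (0.56 and 0.46), whereas ITGAV, ITGA6 and ITGB1 move towards 0 with the offsets.

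Fold changes followed the base composition of the transcripts across the whole transcriptome, and most subunits lay on that trend. Over 12581 genes with a GC content and length, Spearman's rho of the log2 fold change was 0.646 with GC content and -0.533 with transcript length, a description across genes of the same 6 libraries. ITGAV (38.3% GC in its longest transcript), ITGB1 (40.0%) and ITGA6 (42.9%), the members lower at an unadjusted p under 0.05, were AT-rich. ITGA5 (58.7%) and ITGA3 (60.9%) were GC-rich. Of the other members with a log2 fold change below 0, ITGA2 (40.2%) and ITGB6 (40.1%) were AT-rich and ITGB3 (52.3%) was not. The fold changes of 7 of the 9 subunits were within the middle 50% of genes in their own bin of GC content (10 bins of equal size). For ITGB1 the median of the 1258 genes in its bin was -0.34, and for ITGAV that of 1259 genes was -0.44. ITGB5 and ITGB3 shared a bin (51.9% to 55.2% GC, median 0.14, middle 50% from -0.037 to 0.31), and they lay on opposite sides of it, ITGB5 above at 0.56 and ITGB3 below at -0.21.

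**Figure D3:**
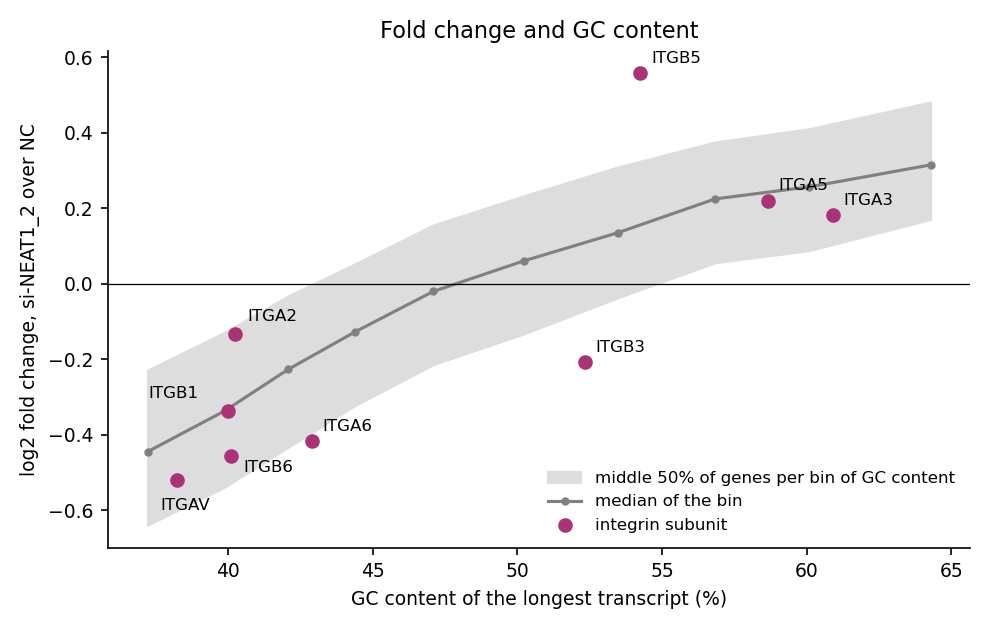
Log2 fold change of si-NEAT1_2 over NC against GC content of the longest transcript, with the median (line) and middle 50% (band) of all genes in 10 bins of equal size, and the 9 subunits as points. Of the subunits, 7 lie in the band, ITGB5 lies above it and ITGB3 below it.

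With offsets that remove this trend from each library, 1 of the 9 subunits had an adjusted p under 0.05, ITGB5, beside 0.175% of all genes. Its log2 fold change was 0.46 (95% confidence interval 0.30 to 0.62, adjusted p = 0.0430 from edgeR), still below a fold of 2, and its groups did not overlap (9.53% of all genes were higher without overlap). With the replicate numbers as a block as well, the adjusted p was 0.363. At an unadjusted p under 0.05, 1 subunit was higher (7.08% of all genes) and 0 were lower (9.25%). ITGA6 was then at -0.13, ITGAV at -0.067, ITGB1 at -0.065, ITGA5 at 0.063 and ITGA3 at 0.024, ITGB3 was at -0.29, and ITGA2 turned from -0.13 to 0.29, with intervals that all held 0. The part of base composition and transcript length in the values as deposited was not tested beyond this fit.

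Ratios of subunits within a library do not depend on its depth. Of 8 ratios of chains that pair or compete for a partner, 2 did not overlap between the groups. Of single genes, 15.4% were higher without overlap and 14.1% lower, and no such share is given for other ratios. The first ratio below also reuses the ITGB5 values, which did not overlap by themselves. ITGB3 over ITGB5, the balance of the vitronectin receptor β chains, was 0.928, 0.978 and 0.849 in NC and 0.738, 0.350 and 0.538 in si-NEAT1_2. All si-NEAT1_2 libraries were lower, with means of 0.918 ± 0.0651 and 0.542 ± 0.194 (SD, n = 3). The difference of the mean log2 ratios was -0.82, and it stayed between -1.08 and -0.54 when each library was left out. It was -0.80 from the values with GC and length offsets, again with no overlap. ITGA5 over ITGB1, the chains of the fibronectin receptor, was 0.103, 0.0808 and 0.120 in NC and 0.127, 0.181 and 0.166 in si-NEAT1_2. All si-NEAT1_2 libraries were higher, by 0.64 on the log2 scale, but the groups overlapped with the offsets, where the difference was 0.12. Both ratios had an exact permutation p of 0.10, the smallest that 3 libraries against 3 can give, and an adjusted p of 0.40 over the 8 ratios.

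ITGA6 over ITGB1 was nearly level, at 0.0458 ± 0.0024 in NC and 0.0442 ± 0.0021 in si-NEAT1_2 (SD, n = 3, exact permutation p = 0.40). ITGA3 over ITGB1 was 0.415 ± 0.0776 and 0.593 ± 0.128, and ITGAV over ITGB1 was 0.0450 ± 0.0046 and 0.0380 ± 0.0077, both with overlap. Of the summed β FPKM, the share of ITGB1 was 79.3%, 83.7% and 79.8% in NC and 75.6%, 73.6% and 72.1% in si-NEAT1_2, and that of ITGB5 was 10.7%, 8.24% and 10.9% in NC and 14.0%, 19.5% and 18.1% in si-NEAT1_2. By FPKM, the β mix thus held less ITGB1 and more ITGB5 in every si-NEAT1_2 library. These shares, like those of the α chains, were taken without the GC and length offsets, with which ITGB1 was at -0.065. As parts of a sum, a higher share of ITGB5 also lowers that of ITGB1. Of the summed α FPKM, ITGA5 made up 16.5 ± 0.720% in NC and 18.9 ± 1.5% in si-NEAT1_2, and ITGA6 7.63 ± 1.31% and 5.37 ± 0.794%. Both were without overlap, with no figure for how often such shares do not overlap in other genes.

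**Figure D4:**
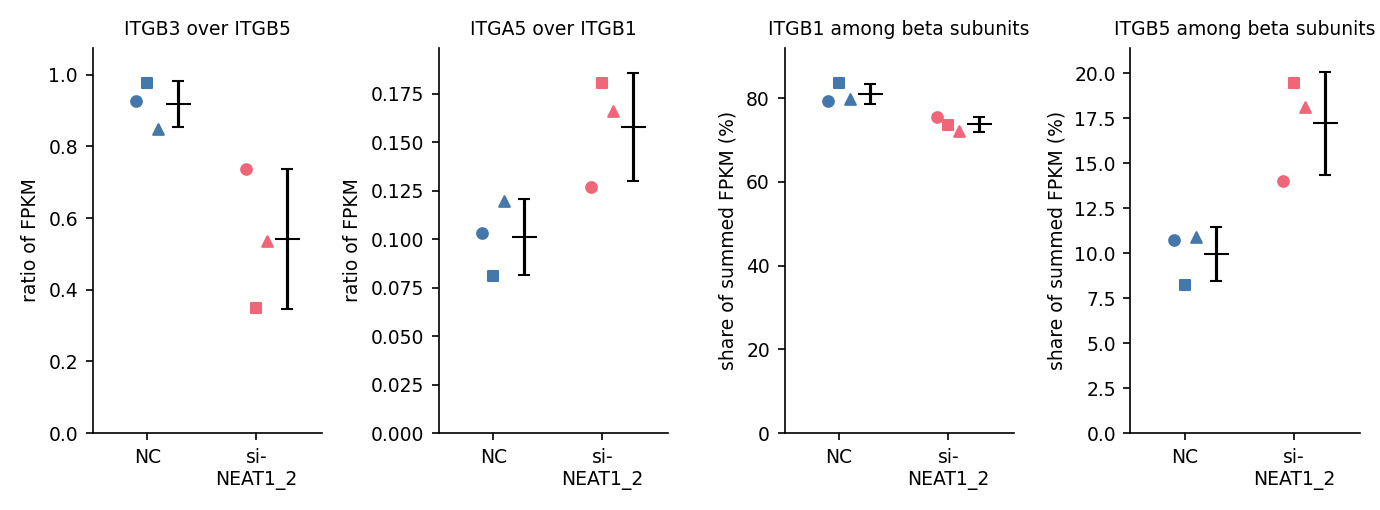
FPKM ratios of ITGB3 over ITGB5 and of ITGA5 over ITGB1, and the shares of ITGB1 and ITGB5 in the summed FPKM of the 5 β subunits (%), in each NC (blue) and si-NEAT1_2 (red) library, with symbols for replicates 1 (circle), 2 (square) and 3 (triangle) and the mean and SD in black. The groups do not overlap in any of the 4 panels, and ITGB3 over ITGB5 goes from a mean of 0.918 to 0.542.

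Other genes of integrin adhesion were read from the same fit, and none of them was called. Of the 16 other integrin subunits, 8 were tested, with a median log2 fold change of 0.026 (-0.059 with the offsets). At an unadjusted p under 0.05 there was 1 higher and 1 lower, beside 11.2% and 12.9% of all genes. ITGA1, a further collagen receptor chain that pairs with ITGB1, was the one named by rule. It was at 1.49, 2.12 and 1.53 FPKM in NC and at 1.22, 0.73 and 1.34 in si-NEAT1_2, a log2 fold change of -0.59 (adjusted p = 0.173, edgeR) that was -0.065 with the offsets. The higher one was ITGAX, a leukocyte α chain with 9 to 27 counts per library and a log2 fold change of 1.05 (adjusted p = 0.188, edgeR).

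Of 22 integrin ligands 16 were tested, with a median of -0.050 (-0.077 with the offsets). At an unadjusted p under 0.05, 3 were higher and 1 was lower, beside 11.2% and 12.9% of all genes. FN1, fibronectin, was at 2110, 2246 and 2089 FPKM in NC and at 1901, 1277 and 2121 FPKM in si-NEAT1_2. The groups overlapped, and si-NEAT1_2 replicate 2 was the low library. Its log2 fold change was -0.33 (95% confidence interval -0.81 to 0.14, adjusted p = 0.340 from edgeR). THBS1, thrombospondin 1, a matrix protein that several integrins bind, was at 326, 395 and 326 FPKM in NC and at 234, 151 and 222 FPKM in si-NEAT1_2. It was lower in all si-NEAT1_2 libraries, as were 14.1% of all genes. Its log2 fold change was -0.66 (adjusted p = 0.170, edgeR), and -0.41 with the offsets (adjusted p = 0.0430, edgeR). TGFB1, whose latent form ITGAV integrins bind, had a log2 fold change of 0.59 and LAMB3, a laminin chain, of 0.39. Both had an adjusted p of 0.170 from edgeR and no overlap between the groups, beside 15.4% of all genes higher without overlap. With the offsets these were 0.29 and 0.22.

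The 24 adaptors and kinases that join integrins to actin were all tested, with a median of -0.14 (-0.13 with the offsets). At an unadjusted p under 0.05, 0 were higher and 2 lower, beside 11.2% and 12.9% of all genes. TLN1, talin, which binds the β tail, had a log2 fold change of -0.37, TNS1, a tensin, of -0.36 and VCL, vinculin, of -0.37, with adjusted p-values of 0.203, 0.197 and 0.215 from edgeR. These 3 did not shrink alike with the offsets, where they were -0.37, -0.33 and -0.24. At an unadjusted p under 0.05 with the offsets, 1 of the 24 was higher and 7 were lower, beside the 7.08% and 9.25% of all genes. A list of 4 genes held 3 inhibitors of integrin activation (SHARPIN, DOK1 and ITGB1BP1) and KRIT1, which is not counted as an inhibitor here. The median of the 4 was 0.20. SHARPIN was at 0.36, DOK1 at 0.37 and ITGB1BP1 at 0.029, all 3 with an unadjusted p above 0.05 from edgeR. With the offsets the median turned to -0.032, with SHARPIN at -0.094, DOK1 at 0.030 and ITGB1BP1 at 0.28. The other one, KRIT1, whose protein binds that of ITGB1BP1, was at -0.83 (adjusted p = 0.170, edgeR) and lower at an unadjusted p under 0.05. ITGAX and KRIT1 are named for these counts, after their values were seen. The 9 membrane and hemidesmosome partners had a median of 0.27. Of these, 2 were higher and 1 lower at an unadjusted p under 0.05, beside 11.2% and 12.9% of all genes. The tetraspanins CD82 (0.62) and CD9 (0.41), which associate with integrins in the membrane, were higher in every si-NEAT1_2 library, as were 15.4% of all genes. DST, a plakin of hemidesmosomes and the cytoskeleton, was at -1.09. Each of these had an adjusted p of 0.170 from edgeR. With the offsets the median of these partners turned to -0.14, and CD82 was at 0.29, CD9 at 0.22 and DST at -0.65. At an unadjusted p under 0.05, 2 partners were then higher and 4 lower, beside 7.08% and 9.25% of all genes.

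The genes whose log2 CPM followed ITGB1 most closely over the 6 libraries, out of 5626 well-expressed genes, were STT3B, MAMDC2 and SPTY2D1, with root mean square differences of 0.0370, 0.0418 and 0.0429 from its centred profile. Those nearest to ITGAV were RRM2B, STRN and ZMYM4, at 0.0600, 0.0610 and 0.0624. These 6 genes had GC contents of 36.4% to 45.4%. Their log2 fold changes, -0.60 to -0.29, follow from the choice by profile over the same libraries, and so add nothing to the trend with GC content.

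The table of group values gave another picture of the same subunits. It held 1 FPKM value per group with no replicates, and how it was made from libraries is not given in the sources used here. For NC, 0 of the 10 values were within the range of the 3 NC libraries (4 above, 6 below), and for si-NEAT1_2 1 of 10 was within (2 above, 7 below). Over the 12598 tested genes also in that table, 14.2% and 20.2% were within. ITGB5 was at 55.9 FPKM in NC and 31.1 in si-NEAT1_2, a ratio of 0.556, which is the opposite direction to the libraries. ITGB3 was at 43.5 and 9.10 FPKM, a ratio of 0.209 and the lowest among the members above 1 FPKM. ITGA5 was at 70.2 and 122 FPKM, higher in si-NEAT1_2 as in the libraries.

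ITGA3 stood at 414 and 223 FPKM in that table, and so was above ITGB1 (307 FPKM) in NC, an order that no library showed. ITGB1 was lower in si-NEAT1_2 at 250 FPKM, ITGA6 was at 4.30 and 2.99 FPKM, roughly 0.143 and 0.137 of the library means, and ITGAV was at 10.9 and 10.97 FPKM. ITGA2 was at 6.34 and 3.35 FPKM, ITGB4 at 0.453 and 0.0433, and ITGB6 at 0.0200 and 0.0433. In all, 5 of the 10 members had the same direction in both sources, beside 57.4% of the genes with a value above 0 in both groups. With 1 value a group these differences have no error, and the values of the 2 sources were not normalized together.

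**Figure D5:**
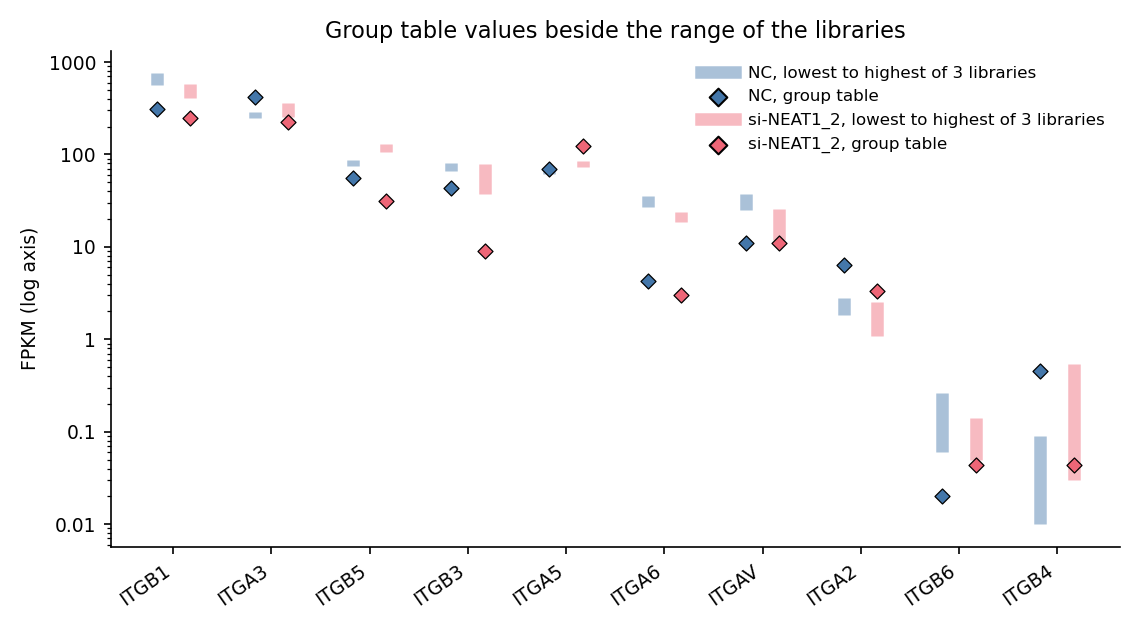
FPKM on a log axis of the 10 subunits in the table of group values (diamonds, 1 value per group, no error) beside the range of the 3 libraries of that group (bars), NC in blue and si-NEAT1_2 in red. Of the NC diamonds 0 of 10 lie within their bar, and for ITGB5 the diamonds run from 55.9 down to 31.1 FPKM where the bars run upwards.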

How the data were processed

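RNA of 3 NC and 3 si-NEAT1_2 K1 libraries was sequenced after enrichment of mRNA. The paper's methods name TopHat2 and RSEM, whereas the submitters' processing notes list fastp 0.18.0, Bowtie2 2.2.8, HISAT2, StringTie 1.3.1 and GRCh38, with no order. The authors deposited expected counts per gene, which are not normalized, and FPKM values, scaled for length and library size by the authors. The second table holds an expected count and FPKM value per group. Strandedness of the counting is not given in the sources used here, and antisense RNAs overlap ITGA5, ITGA6, ITGAV and ITGB1.

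Expected counts were rounded, filtered with filterByExpr, scaled by TMM and fitted over all genes with edgeR 4.0.16 (quasi-likelihood test) under R 4.3.3. DESeq2 1.42.0 and limma 3.58.1 were alternatives, with other filters and pseudocounts of 1 or 0.1. Offsets were natural splines (5 degrees of freedom) on GC content and transcript length, from GENCODE release 29. The share of genes tested that had both was 96.0%. Genes of each list were named by the 3 lowest p-values at an average log2 CPM of at least 3, plus FN1. The neighbours of ITGB1 and ITGAV were sought at 5 or more. Ratios were tested by exact permutation. The members and lists were chosen with earlier results of these data known. On simulated data the test recovered 80.3% to 86.9% of changed genes for this comparison, over 12985 to 13011 genes. The changes planted there, in 200 genes, were all 2-fold or larger, and the draws carried no trend with GC content. Every subunit tested had a smaller fitted change, so this share does not describe the power for the subunits. Columns of per-sample values left unmapped numbered 0. Some genes counted in the lists are not reported here by name.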

Additional observations from a re-analysis of the deposited data

How the results depend on the processing

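Across 16 alternatives the log2 fold change of ITGB5 stayed between 0.46 and 0.63. ITGA3, ITGA5, ITGA6, ITGAV, ITGB1 and ITGB6 kept their sign in each alternative that gave a value. For some the sign says little: ITGB6 was at -0.0023 without NC replicate 2, and ITGA3 at 0.019 with the offsets and replicate block. ITGA2 turned to 0.29 with GC content and length offsets and to 0.27 with these and the replicate block. When each library was left out, ITGA2 ranged from -0.33 to 0.12 (above 0 at 0.058 without NC replicate 2) and ITGB3 from -0.41 to 0.019, both highest when si-NEAT1_2 replicate 2 was missing. The cause was not tested. Over the alternatives the members' median ranged from -0.44 (library code as a term) to 0.028. When each library was left out it ranged from -0.41 to 0.028. It was above 0 only without si-NEAT1_2 replicate 2 (0.019) and, with ITGB4 included, without NC replicate 2 (0.028). The subunits behind these medians differed, since 8, 9 or 10 of them were tested depending on the fit. The subunits with an unadjusted p under 0.05, 4 in the fit reported, numbered 2 with the replicate block, 1 with the offsets, 1 with both and 2 to 4 without each library. Genes called numbered 73 with DESeq2, 18 without a filter, 1 without TMM, 1 with log2(FPKM + 0.1), 4 with the offsets and 0 to 216 without each library, the most without si-NEAT1_2 replicate 1. Of the 8 ratios, 2 did not overlap as reported, 4 with FPKM + 1, 1 of 7 with the offsets (chosen after seeing the data) and 2 to 4 without each library, and 5 had 1 sign in every numbered pair. The paper's methods speak of pairs of cells without saying which libraries pair. Same-numbered libraries did not deviate together (correlations -0.28, -0.36 and -0.008), so the replicate block pairs numbers only. With that block ITGB5 stood at 0.56 (adjusted p = 0.401, edgeR) and genes called numbered 0. For the table of group values, with 1 value a group, no paired analysis was possible because it comes from no test. Depth limits ITGB6 and ITGB4, with 1 to 18 counts per library.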
